A study of Danio rerio with 24 samples.

Results

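Kinesins are motor proteins that walk along microtubules, and the zebrafish genome encodes a large family of them. The genes described here are the rows of the tumor count table whose gene name starts with kif or kifc followed by a digit, in either letter case, which gave 46 of 32266 genes. They were sorted by known role into 12 mitotic kinesins, 16 kinesins of axonal transport, 6 of endosomes and dendrites, 4 of cilia and Hedgehog signalling and 7 other kinesins. The last row, kif1bp, carries the kif name but encodes a binding protein and is not a motor.

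The tumor samples were brain tumors of 10 adult WIK zebrafish in which rb1, the retinoblastoma gene, had been targeted somatically with TALENs, designed nucleases that cut a chosen site. Each of these fish is therefore a mosaic of cells with and without lesions, and the share of targeted cells in a tumor sample is not given in the sources used here. The controls were wild-type siblings, whose brains were combined 3 at a time into 2 pools. Fish of both groups were 6.5 to 10 months old, the tissue was taken on one side of the midline from the diencephalon to behind the cerebellum, and each RNA gave 2 libraries, a and b, whose counts were summed.

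Kinesins fall into families that share a motor domain and differ in what they carry. In dividing cells, kinesins of families 4, 5, 6, 8, 10, 12, 13 and 14, and Kif14 of kinesin-3, build the spindle, move chromosomes and complete cytokinesis. Many of these genes are transcribed mainly around mitosis. In neurons, which do not divide, kinesin-1, kinesin-2 and kinesin-3 carry mitochondria, synaptic vesicle precursors and other cargo outwards along the axon. The question asked of the data was how each set stood in rb1 tumors against normal brain.

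The controls need a remark before any value. Libraries a of pool 1 and pool 2 agreed within sampling noise (chi-square per degree of freedom 1.00), as did libraries b (1.007), whereas a and b of the same pool differed (3.25 and 3.42). Among the tumors, a and b of the same RNA gave 1.04 to 1.60. Which libraries belong to which pool is therefore uncertain. The fit, its SEs and p-values, and the values given for the pools used the pools as labelled. These differed only within sampling noise (1.009), where the control sums by letter differed more (5.36), so the control spread in the SEs is poorly known. Summing the control libraries by letter called all 27 of the 27 kinesin genes called with the labelled pools. For the percent differences below, each same-letter couple was counted as 1 sample. Among the 14 transport kinesins with at least 10 CPM in controls, the letter sums differed by at most 9.67% (median 2.92%). For the 12 mitotic kinesins, all of them low in controls, they differed by 2.84% to 61.9% (median 16.2%). Total counts were 18.5 to 24.95 M per tumor and 19.8 and 21.04 M in the pools, and 3 counts correspond to 0.120 to 0.162 CPM. rb1 itself had 18.8 to 101 CPM in tumors (median 29.3) and 13.1 and 14.6 CPM in the pools (edgeR adjusted p = 0.0481, not called), but reads across a small lesion still count, so this level does not check the labels.

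Levels between samples are given as CPM, counts per library total of 1 M (mega) counts after TMM scaling, and a gene was called when edgeR's quasi-likelihood test gave a Benjamini-Hochberg adjusted p of at most 0.01 over all genes tested together with a change of at least 1.5-fold. Of the 46 genes, 43 passed the filter on low counts. In tumors, 15 of them were called higher, 12 lower and 16 were not called. Over the 20957 genes tested, 22.8% were called higher and 24.9% lower, and the median change was 0.09 on the log2 scale. The 3 genes that were not tested, KIF9, kif16bb and kif25, had at most 0.675 CPM in any sample.

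All 12 mitotic kinesins were higher in rb1 tumors, 14.1- to 144-fold (median log2 fold change 5.91), against a background of 22.8% of genes called higher. In all 12 genes every tumor lay above both pools, which held for 31.5% of all genes tested. Their summed level was 1171 CPM in the lowest tumor, 1649 CPM at the median and 2462 CPM in the highest, against 30.8 and 29.1 CPM in the pools. In the pools no mitotic kinesin exceeded 6.23 CPM, and each rested on 34 to 242 counts over both pools, so the fold changes carry the counting error of the controls. KIF2A, a kinesin-13 of spindle poles and of growing axons, was not put in this set and was 2.90-fold higher. The role classes were set with earlier results of these data known.

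Per unit of length, the spindle motors kifc1 and kif11 had the highest group means of all kinesins in tumors, 112 and 86.6 FPKM. Kif11, also called Eg5, is the kinesin-5 that pushes the spindle poles apart by sliding antiparallel microtubules. kif11 had 213 CPM in the lowest tumor, 300.1 CPM at the median and 465 CPM in the highest, against 3.04 and 3.35 CPM in the pools. On the log2 scale the difference was 6.67 (SE 0.44, edgeR adjusted p = 1.40e-07). Kifc1 is a minus-end-directed kinesin-14 that focuses spindle poles. kifc1 had 196, 273 and 506 CPM as lowest, median and highest tumor values, against 2.42 and 2.40 CPM in the pools (log2 fold change 6.92, SE 0.45, edgeR adjusted p = 1.16e-07). The highest value, in tumor 8, stood well above the next at 335 CPM. Kif15, a kinesin-12 that helps keep the bipolar spindle open beside Kif11, had 96.6, 148 and 208 CPM in tumors and 3.24 and 2.63 CPM in the pools, a log2 fold change of 5.69 (SE 0.40). For these motors the lowest tumor lay far above the higher pool.

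Motors that act on chromosomes and microtubule ends followed. Kif2c, or MCAK, is a kinesin-13 that does not walk but takes microtubules apart at centromeres. kif2c had 66.8, 119 and 154 CPM as lowest, median and highest tumor values, against 1.5 and 1.22 CPM in the pools (log2 fold change 6.41, SE 0.38, edgeR adjusted p = 6.29e-08). Kif4, a chromosome-arm motor that also shortens microtubules of the central spindle, had 117, 183 and 270.0 CPM in tumors and 2.71 and 3.04 CPM in the pools (log2 fold change 6.07, SE 0.38). For both genes the tumors and the pools were far apart. Kif22, the kinesin-10 that pushes chromosome arms, and Kif18a, the kinesin-8 that damps the movement of kinetochore microtubules, had the smallest folds of the group. kif22 had 94.2, 125 and 176 CPM in tumors and 6.23 and 5.12 CPM in the pools (log2 fold change 4.52, SE 0.32). kif18a had 29.8, 47.1 and 65.6 CPM in tumors and 3.62 and 3.13 CPM in the pools (log2 fold change 3.81, SE 0.35, edgeR adjusted p = 2.09e-06), and was the mitotic kinesin closest to the threshold.

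The cytokinesis motors rose as well. Kif14, which works at the midbody, had the highest fold of all kinesins tested. kif14 had 83.7, 111 and 147 CPM as lowest, median and highest tumor values, against 0.483 and 1.09 CPM in the pools (log2 fold change 7.17, SE 0.38, edgeR adjusted p = 2.64e-08). Kif23, the motor subunit of centralspindlin, had 102, 132 and 188 CPM in tumors and 1.93 and 2.81 CPM in the pools (log2 fold change 5.86, SE 0.33). The other kinesin-6 genes, kif20a, kif20ba and kif20bb, had log2 fold changes of 5.97, 5.46 and 5.55.

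**Figure D1:**
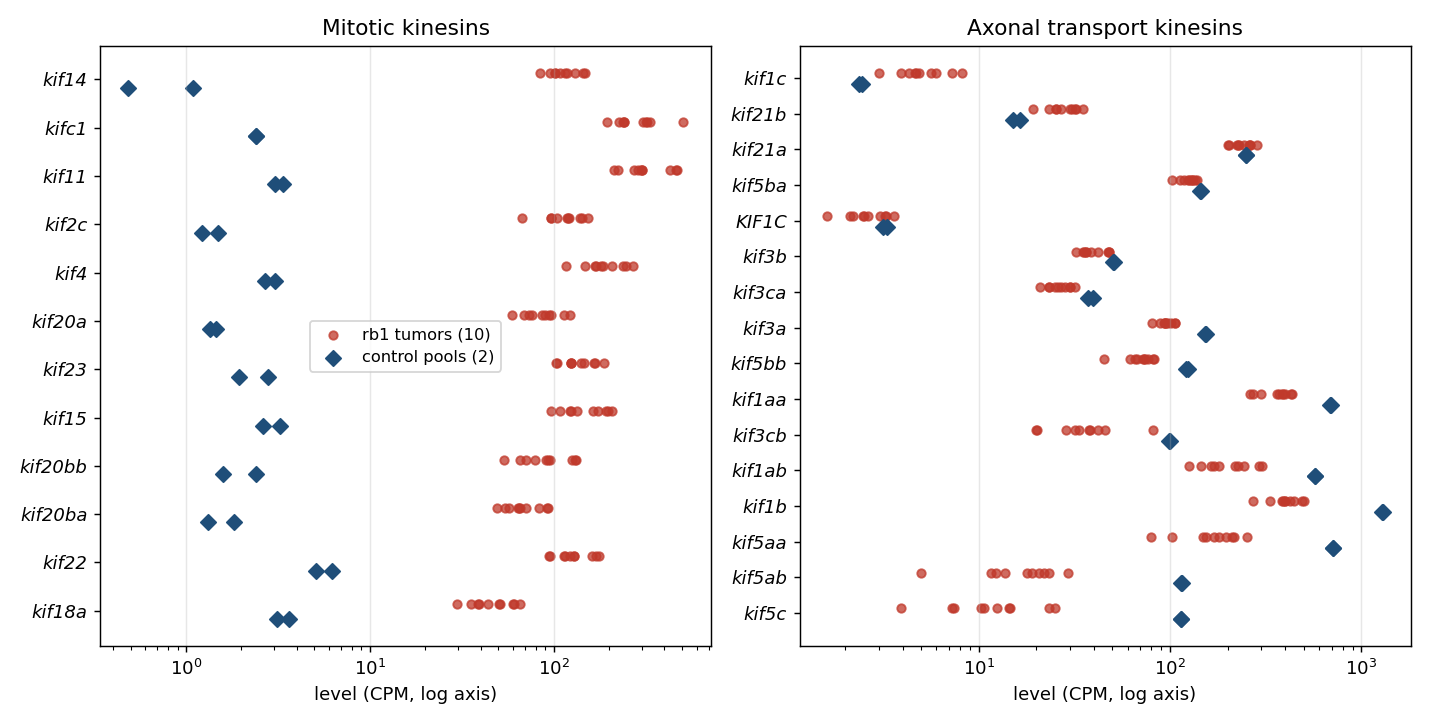
Level of each mitotic kinesin (left) and axonal transport kinesin (right) in CPM on a log axis, with red points for the 10 rb1 tumors above blue diamonds for the 2 control pools in each row, and genes ordered by fold change. In all 12 mitotic genes the tumors lie right of the pools, and in 12 of 16 transport genes they lie left of them.

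Most axonal transport kinesins stood the other way, but not all of them. Of 16 genes, 9 were called lower in rb1 tumors against a background of 24.9%, 1 was called higher and 6 were not called, and the median change was -0.75 on the log2 scale. With glmTreat, which tests against 1.5-fold itself, 5 were called lower. Over all 20957 genes glmTreat called 3792 lower, where the main fit called 5220. In 12 of the 16 genes every tumor lay below both pools, against 32.8% of all genes tested. Their summed level was 1350 CPM in the lowest tumor, 1876 CPM at the median and 2185 CPM in the highest, against 4379 and 4374 CPM in the pools. Markers of mature neurons moved with them: 25 of 28 tested were called lower and 2 higher (elavl3, log2 fold change 1.13, and mapta, 1.71), and their summed level was 3027 to 5814 CPM in tumors (median 4766) and 15469 and 15441 CPM in the pools. In bulk tissue, fewer neurons and less of these mRNAs per neuron cannot be told apart, and the part of neuron content in these results was not tested.

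Kinesin-1 is the conventional kinesin, a dimer of Kif5 heavy chains that binds cargo through light chains and adaptors. In mammals KIF5A and KIF5C are neuronal and KIF5B is found in most cells. kif5aa, the most abundant kinesin of normal brain by FPKM, had 79.2 CPM in the lowest tumor, 175 CPM at the median and 253 CPM in the highest, against 711 and 713 CPM in the pools. On the log2 scale the difference was -2.06 (SE 0.28, edgeR adjusted p = 4.40e-05), and no tumor came near the pools. The other neuronal heavy chains, described here for their family and picked after their values were seen, fell further. kif5c had 3.94, 11.5 and 25 CPM in tumors and 115 and 114 CPM in the pools (log2 fold change -3.14, SE 0.42), and kif5ab had a log2 fold change of -2.72 (SE 0.37).

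The Kif5b copies fell less or were not called. kif5bb had 45, 72.4 and 82.8 CPM as lowest, median and highest tumor values, against 121 and 124 CPM in the pools (log2 fold change -0.81, SE 0.16, edgeR adjusted p = 0.000854). kif5ba had 103, 127 and 138 CPM in tumors and 144 and 146 CPM in the pools (log2 fold change -0.21, SE 0.11, edgeR adjusted p = 0.1002). Every tumor lay below the pools for kif5ba too, but by little. Under glmTreat, and without either control pool, kif5bb was no longer called, but with a lone pool as control fewer of all genes were called.

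To compare levels between these genes, FPKM as deposited was used, which divides by the exonic length of the gene. The 5 heavy chains summed to 66.1 to 114 FPKM in tumors (median 93.0) and 280 and 282 FPKM in the pools. Of that sum, kif5aa gave 23.6% to 48.7% in tumors and 55.6% and 55.5% in the pools, and kif5c gave 0.993% to 4.07% in tumors and 7.65% and 7.53% in the pools. The share of kif5ba ran the other way, with 22.2% to 41.8% in tumors and 11.7% and 11.8% in the pools, and that of kif5bb was 18.4% to 34% in tumors and 15.1% and 15.5% in the pools. The heavy chain mRNA of tumors was lower in summed FPKM and held a larger share of the Kif5b copies.

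**Figure D2:**
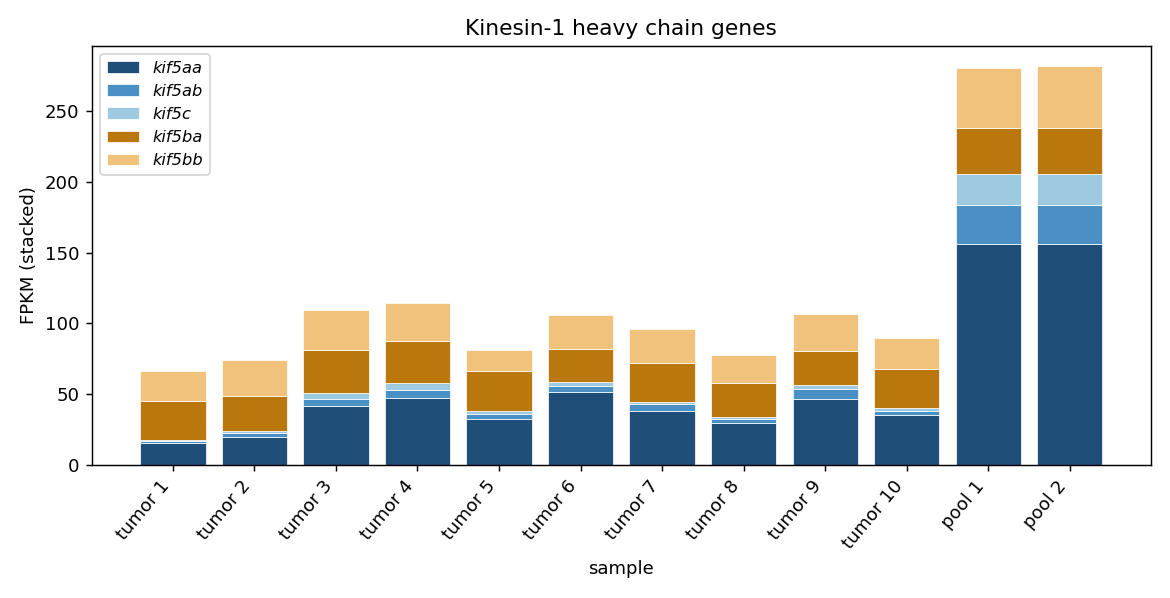
FPKM of the 5 kinesin-1 heavy chain genes, stacked, in each of 10 rb1 tumors (left) and 2 control pools (right). The neuronal copies (blue shades) shrink most in tumors, and the sum is at most 114 FPKM in tumors against 280 and 282 FPKM in the pools.

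Kinesin-3 motors of the Kif1 type carry synaptic vesicle precursors, and Kif1b also carries mitochondria. kif1b had 271, 398 and 505 CPM as lowest, median and highest tumor values, against 1295 and 1291 CPM in the pools (log2 fold change -1.68, SE 0.16, edgeR adjusted p = 3.52e-06). kif1ab had 126, 200.3 and 303 CPM in tumors and 571 and 575 CPM in the pools (log2 fold change -1.47, SE 0.25). kif1aa had 262, 378 and 435 CPM in tumors and 693 and 684 CPM in the pools (log2 fold change -0.93, SE 0.17, edgeR adjusted p = 0.000394). In all of them the highest tumor was below the lower pool. Kif1c carries dense core vesicles in mammals, and 2 rows bear its name: KIF1C had a log2 fold change of -0.28 (edgeR adjusted p = 0.381), and kif1c, at 3.0 to 8.18 CPM in tumors and 2.37 and 2.45 CPM in the pools, 1.12 (edgeR adjusted p = 0.0112), neither of them called.

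Kinesin-2 is a motor of axons and of cilia, in which Kif3a pairs with Kif3b or Kif3c. kif3a had 80.7, 95.2 and 107 CPM as lowest, median and highest tumor values, against 153 and 155 CPM in the pools (log2 fold change -0.68, SE 0.10, edgeR adjusted p = 6.94e-05). kif3b was not called, with 32.4 to 48.0 CPM in tumors and 51.1 and 50.6 CPM in the pools (log2 fold change -0.35, edgeR adjusted p = 0.0608). Of the Kif3c copies, which are neuronal in mammals, kif3cb was the called transport gene nearest to the threshold and kif3ca the nearest below it. kif3cb had 19.8, 35.6 and 81.9 CPM in tumors and 99.3 and 99.7 CPM in the pools (log2 fold change -1.39, SE 0.37, edgeR adjusted p = 0.00505). Its call was lost under glmTreat and without tumor 2, tumor 8 or either pool, and with a lone pool as control fewer of all genes were called. kif3ca had 20.9, 26.5 and 31.7 CPM in tumors and 39.7 and 37.4 CPM in the pools (log2 fold change -0.54, SE 0.14, edgeR adjusted p = 0.00534), a change of under 1.5-fold.

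The kinesin-4 motors Kif21a and Kif21b restrain microtubule growth in neurons, and neither was called lower. kif21a had 200.1, 236 and 285 CPM as lowest, median and highest tumor values, against 249 and 249 CPM in the pools, and the groups overlapped (log2 fold change -0.05, SE 0.13, edgeR adjusted p = 0.728). kif21b was the only transport kinesin called higher, with 19.3, 28.6 and 35.0 CPM in tumors and 15.1 and 16.4 CPM in the pools (log2 fold change 0.83, SE 0.20, edgeR adjusted p = 0.00278). Every tumor lay above the pools, but the call was lost without either pool. Such a fit has a lone pool as control, and it called fewer of all genes.

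**Figure D3:**
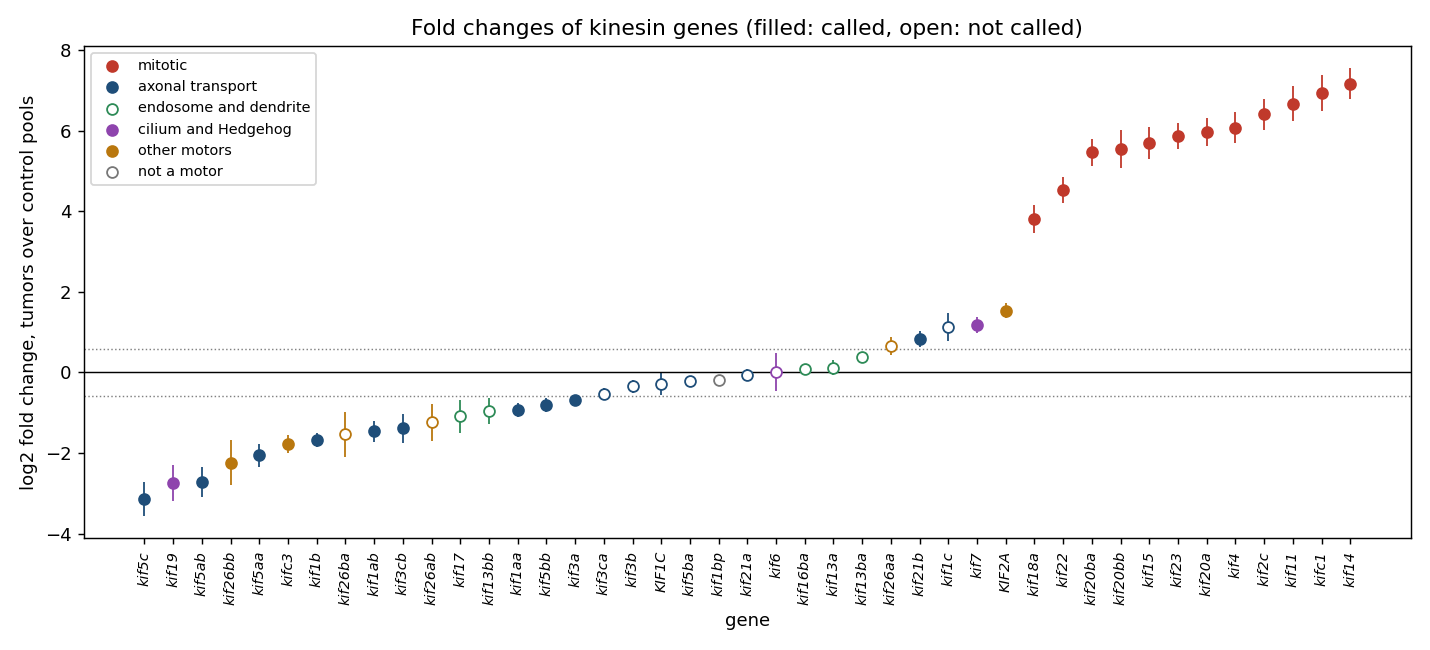
Log2 fold change of rb1 tumors over control pools for the 43 kinesin genes tested, with error bars of 1 SE, filled points for called genes and open points for genes not called. Dotted lines mark 1.5-fold. The 12 mitotic genes (red) fill the right end, from 3.81 to 7.17, and the transport genes (blue) run from -3.14 to 1.12.

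Per unit of length, all kinesin genes except kif1bp were summed, with the kif26 genes, which lack motor activity, included. The sum was much alike in the groups, with 790.0 to 1022 FPKM in tumors (median 881) and 843 and 844 FPKM in the pools. Of the 10 tumors, 7 lay above both pools and 3 below. What filled that sum was different. Mitotic kinesins gave 43.5% to 66.1% of it in tumors (median 52.6%) and 1.12% and 1.05% in the pools. Transport kinesins gave 24.6% to 44.5% in tumors (median 36.5%) and 87.7% and 87.8% in the pools, and in 9 of 10 tumors they were outweighed by the mitotic kinesins. FPKM is itself a share of all counts, so these are make-ups of the mRNA and not amounts per cell.

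The order of single genes by FPKM changed with it. In tumors the highest group means were those of kifc1 (112 FPKM), kif11 (86.6 FPKM), kif22 (55.3 FPKM), KIF2A (53.4 FPKM) and kif2c (39.2 FPKM), of which KIF2A alone is not in the mitotic set. The transport motors kif1b (39.1 FPKM), kif1aa (36.7 FPKM) and kif5aa (35.8 FPKM) came next, and the values of kif2c, kif1b, kif1aa and kif5aa lie within the spread between tumors, as do those of kif22 and KIF2A. In the pools the order was led by kif5aa (156 FPKM), kif1b (132 FPKM), kif1ab (103 FPKM) and kif1aa (73.9 FPKM), and no mitotic kinesin was among the 8 highest.

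**Figure D4:**
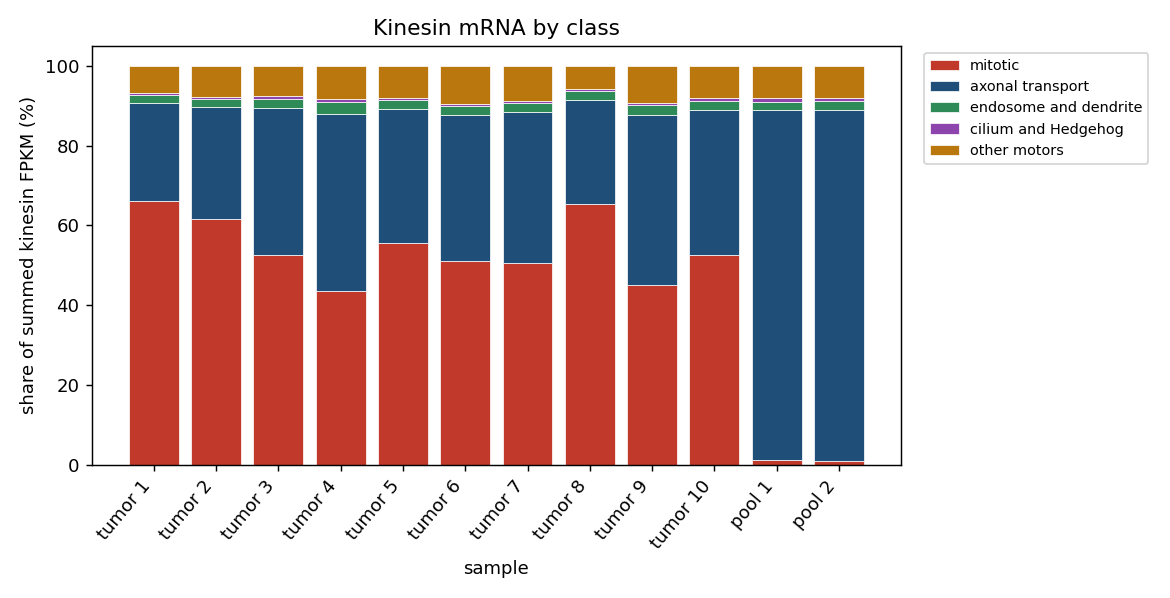
Share of the summed FPKM of kinesin genes, without kif1bp, taken by each class in each of 10 rb1 tumors (left) and 2 control pools (right). The class marked other motors includes the kif26 genes, which lack motor activity. The mitotic share (red) is 43.5% to 66.1% in tumors and close to 1% in the pools, and the transport share (blue) is 24.6% to 44.5% in tumors and close to 88% in the pools.

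Among the 6 other kinesins tested, 1 was called higher and 2 lower, where 22.8% of all genes were called higher and 24.9% lower. Kif2a, a kinesin-13 that depolymerizes microtubules at spindle poles and also prunes growing axons, was called higher: KIF2A had 176, 190.4 and 283 CPM as lowest, median and highest tumor values, against 69.4 and 70.9 CPM in the pools (log2 fold change 1.53, SE 0.18, edgeR adjusted p = 1.37e-05). Of the kif2 FPKM, kif2c gave 33.0% to 51.1% in tumors and 2.72% and 2.18% in the pools. kifc3, a minus-end kinesin of the Golgi and cell junctions, had 27.7, 41.8 and 62.2 CPM in tumors and 143 and 140.1 CPM in the pools (log2 fold change -1.78, SE 0.21, edgeR adjusted p = 1.68e-05). Of the kinesin-11 genes, atypical kinesins without motor activity, kif26bb, kif26ba and kif26ab differed 11.5-, 9.69- and 6.76-fold between the lowest and the highest tumor, and kif26aa 1.99-fold. kif26ba had 6.40, 25.8 and 62.0 CPM in tumors and 93.8 and 89.8 CPM in the pools (log2 fold change -1.54, SE 0.55, edgeR adjusted p = 0.0276), so that no tumor reached the pools and yet the gene was not called. kif26bb was called lower (log2 fold change -2.24), and kif26ab (-1.24) and kif26aa (0.65) were not called.

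Among the kinesins of cilia and Hedgehog signalling, Kif7 acts at the tip of the primary cilium as a regulator of Hedgehog signalling. kif7 had 18.3, 27.9 and 34 CPM as lowest, median and highest tumor values, against 11.9 and 12.8 CPM in the pools (log2 fold change 1.18, SE 0.20, edgeR adjusted p = 0.000259). Kif19, a kinesin-8, shortens motile cilia in mammals. kif19 had 1.19, 4.16 and 10.2 CPM in tumors and 31.7 and 30.1 CPM in the pools (log2 fold change -2.75, SE 0.45, edgeR adjusted p = 0.000180). Beside it, 2 of 22 markers of motile cilia and ependyma were called lower (24.9% of all genes), with summed levels of 18.7 to 53.7 CPM in tumors (median 30.4) and 78.6 and 79.3 CPM in the pools, and their part in the kif19 result was not tested. kif6, another kinesin of motile cilia, had under 1 CPM in every sample.

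Of the 5 endosome and dendrite kinesins tested, edgeR called 0, although 3 had an unadjusted p under 0.05, and DESeq2 called 1 (kif13bb) and limma voom 0. Over all genes edgeR called 22.8% higher and 24.9% lower. The median change of the 5 kinesins was 0.08 on the log2 scale. kif13ba, which carries membrane cargo, had 68.8, 71.9 and 93.3 CPM as lowest, median and highest tumor values, against 59.0 and 59.6 CPM in the pools (log2 fold change 0.37, SE 0.13, edgeR adjusted p = 0.0238). kif16ba, an early endosome motor, had 36.1, 46.1 and 53.7 CPM in tumors and 42.8 and 44.8 CPM in the pools (log2 fold change 0.08, SE 0.12). kif13a had 30.9, 44.0 and 51.5 CPM in tumors and 38.1 and 39.3 CPM in the pools (log2 fold change 0.12, SE 0.18). The groups overlapped for kif16ba and kif13a and not for kif13ba. kif13bb and kif17, both low, had log2 fold changes of -0.96 and -1.09, and kif1bp had -0.19. For kif13bb, kif17 and kif1bp every tumor lay below both pools, which held for 32.8% of all genes tested.

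Zebrafish carry a and b copies of many of these genes from the genome duplication of teleosts, the group of ray-finned fishes to which zebrafish belong. The log2 ratio of the a copy to the b copy in FPKM was compared between tumors and pools in 8 couples, each by an exact two-sided permutation test over the 12 samples. The difference of tumors minus pools was 0.72 for kif5a, 0.57 for kif1a, 0.95 for kif3c, 0.61 for kif5b, 1.40 for kif13b and 2.05 for kif26a, each with an adjusted p of 0.0606, and so no couple passed 0.05 (the smallest unadjusted p the design allows is 0.0152). For kif20b the difference was -0.07 and for kif26b 0.74, both with an adjusted p of 0.606. Counting of unique reads alone is stated in the methods without naming a set of libraries and is assumed here, and under it reads that match both copies would be missing.

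Tumors differed in how far they went. Tumors 1, 2 and 8 were the 3 highest for 12 of 12 mitotic kinesins, with summed levels of 2237, 2231 and 2462 CPM, and the next tumor had 1770 CPM. Tumor 4 was lowest for 10 of 12 and tumor 9 for the other 2. Among the 9 transport kinesins called lower, tumor 1 was lowest for 6, and tumor 9 was among the 3 highest for 7. The coefficient of variation between tumors was 18.3% to 30.3% in the mitotic set and 8.20% to 52.5% in the transport set.

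Relations between genes across tumors were computed for 4 couples on log2 CPM. Over all 10 tumors, kif11 and the proliferation marker mki67 had r = 0.90 (permutation adjusted p = 0.00256) and rho = 0.89 (permutation adjusted p = 0.00460). In the same 10, kif11 and kif5aa had r = -0.76 (permutation adjusted p = 0.0227) and rho = -0.61 (permutation adjusted p = 0.0893). Tumors 1, 2 and 8 stood apart in kif11, so these values may rest on them. They were therefore left out, a choice made after seeing the data. In the 7 other tumors, kif11 and mki67 had r = 0.83 (exact permutation p = 0.0169, adjusted 0.0675) and rho = 0.79 (exact permutation p = 0.0480, adjusted 0.192). In the same tumors, kif11 and kif5aa had r = -0.27 (exact permutation p = 0.545, adjusted 0.545) and rho = 0 (exact permutation p = 1). Leaving out tumors 1, 2 and 8 narrows the range of kif11, so these values cannot show whether an inverse order of the 2 genes rests on those tumors. Over all 10 tumors, kif1aa and snap25a, a gene of the synaptic vesicle fusion machinery, had r = 0.73 (permutation p = 0.0170, adjusted 0.0227) and rho = 0.72 (permutation p = 0.0243, adjusted 0.0486). Without the 2 tumors farthest from the median of kif1aa, r was 0.47. On log2(FPKM + 1) r was 0.81, and 0.66 without the same 2 tumors. Leaving them out also narrows the range of kif1aa, so the step cannot show whether the relation rests on them. kif5aa and elavl3 had r = -0.31 (permutation p = 0.383, adjusted 0.383) and rho = -0.35 (permutation p = 0.332, adjusted 0.332), with r = -0.48 after the same step. All values of a tumor share its library and its total.

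**Figure D5:**
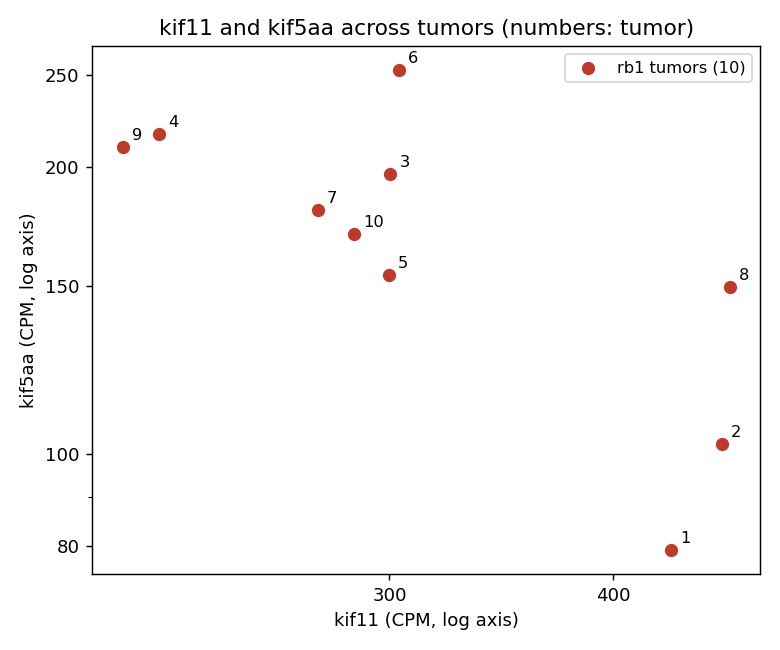
kif11 against kif5aa in the 10 rb1 tumors, both in CPM on log axes, each point a tumor with its number. Tumors 1, 2 and 8 lie apart at the right, at 431 CPM of kif11 or more, and tumor 1 has the lowest kif5aa at 79.2 CPM.

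The partners of the motors were followed in lists chosen by role. Of 33 genes that link kinesins to cargo or to the track, 20 were called lower and 5 higher (median log2 fold change -1.11), where 24.9% of all genes were called lower and 22.8% higher. The light chains klc2 (log2 fold change -1.61), klc3 (-2.53) and klc4 (-0.88), the kinesin-2 adaptor kifap3a (-1.40), the kinesin-1 adaptor mapk8ip3 (-1.54) and the Kif1a partner ppfia3, a liprin-alpha, (-2.75) were lower, as was kidins220b (-1.17). Within the Map7 family, which recruits kinesin-1 to microtubules, map7a (-2.57), map7d1a (-2.01), map7d1b (-1.38), map7d2a (-1.06) and map7d2b (-2.35) were called lower. map7d3 alone of that family in the list was called higher. It had 328, 430 and 668 CPM as lowest, median and highest tumor values, against 65.9 and 69.7 CPM in the pools (log2 fold change 2.73). trak2, an adaptor for mitochondria (0.85), was called higher too, as were rhot2 (0.71), arl8bb (0.68) and another liprin-alpha gene, ppfia1 (0.88). Of the other liprin-alpha genes, ppfia4 was called lower (-2.06) and ppfia2 was not called (-0.93). The light chain klc1a (-0.43, edgeR adjusted p = 0.142), kifap3b (-0.10) and arl8a (0.18) were not called. Of 29 spindle partners, 28 were called higher (median log2 fold change 6.13), among them cenpe, a kinetochore kinesin outside the kif names (6.65), top2a (6.29) and mki67 (5.86), while ska2 was not called (0.44).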

How the data were processed

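Single-end RNA-Seq of 24 libraries from 10 rb1 tumors and 2 control pools was used as deposited. The authors deposited whole-number counts per Ensembl gene, and not normalized. The methods state that reads were aligned with GSNAP to GRCz10 and that uniquely mapped reads were counted with HT-Seq. That passage follows the heading of the larval libraries and names no set of libraries, and it was assumed to hold for the tumors. Strand use is not given in the sources used here. The FPKM values were computed by the authors from counts, gene length and library total. The deposited comparison table (DESeq2 means, log2 fold changes, errors and p-values) was not used.

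Counts of libraries a and b were summed per labelled sample, and all genes passing filterByExpr were fitted with edgeR 4.0.16 (TMM, quasi-likelihood) in R 4.3.3, with calls at adjusted p of at most 0.01 and 1.5-fold. Alternatives were DESeq2 1.42.0, limma 3.58.1 (voom, and log2 FPKM with a pseudocount of 1 or 0.1), RLE scaling, no filter, glmTreat, 1 library per sample, control sums by letter, a replicate block, and leaving out each sample. The scripts were tested on simulated data. Where nothing in the labels says otherwise, p-values of the pools measure only the spread between these libraries.

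Members, role classes and gene lists were chosen with earlier results of these data known. Described in full were, by mean CPM, 8 genes of each main class and 3 of each other class, genes called against their class and those nearest the threshold. No gene coordinates are given, because the annotation at hand is of another build than GRCz10.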

Additional observations from a re-analysis of the deposited data

Results flagged for a closer look

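The 43 kinesin genes tested were checked for a tumor that lay apart from the other 9, by Dixon's ratio of gap to range, and 2 genes were flagged. Chance marks about 1 gene in 20, so 2 of 43 is near the number that chance gives. kif3cb had 81.9 CPM in tumor 6 and 45.9 CPM in the next tumor, against 99.3 and 99.7 CPM in the pools. kifc1 had 506 CPM in tumor 8 and 335 CPM in the next tumor, against 2.42 and 2.40 CPM in the pools.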

How the results depend on the processing

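All 12 mitotic kinesins were called higher under every alternative run. Transport kinesins called lower numbered 9, and 5 when glmTreat tested against 1.5-fold, 10 on both FPKM scales, in library b alone and at an adjusted p of 0.05 with no fold threshold, and 7 (without either pool) to 10 when samples were left out one by one. All called kinesins numbered 27, with 21 under glmTreat, 35 at an adjusted p of 0.05 with no fold threshold, and 23 to 29 when samples were left out. Over all 20957 genes, glmTreat called 3158 higher and 3792 lower, where the main fit called 4779 and 5220. Of the same genes, 5216 were called lower on log2(FPKM + 1) and 5564 on log2(FPKM + 0.1), and library b alone called 5013 of 19563 lower. For an adjusted p of 0.05 with no fold threshold, no count over all genes is given here, so its kinesin counts cannot be set against a background. kif1aa and kif3a lost their calls only under glmTreat. kif3cb and kif5bb lost theirs under glmTreat too (glmTreat adjusted p = 0.0226 and 0.0718), and under other settings. kif21b lost its call without either pool, under glmTreat and in both fits of tumors 1 and 2 with the pools. A fit without a pool has a lone control, and it called fewer of all genes than the main fit. Deviations of tumors 1 and 2 from the tumor mean had correlations of 0.01 and 0.01 with those of the pools of the same number. The labelled pools differed only within sampling noise (chi-square per degree of freedom 1.009), so these correlations cannot show whether replicate numbers pair the samples. With a replicate block on tumors 1 and 2 and both pools, 8 transport and 25 kinesin genes were called. In the same samples without the block these were 10 and 28. Over all genes, the fit with the block called 3371 higher and 3686 lower, and the fit without it 4161 and 4659. Genes near 0 turned sign: kif6 gave -0.018 with RLE scaling, -0.0059 with DESeq2, -0.041 with limma voom, -0.0071 on log2(FPKM + 1), -0.056 on log2(FPKM + 0.1), and -0.25 to 0.34 over the alternatives. kif16ba gave -0.0086 on log2(FPKM + 1), -0.011 on log2(FPKM + 0.1) and -0.17 with and without the block. kif21a gave 0.0080 in library a alone and -0.096 to 0.028 when samples were left out, positive only without tumor 2. The kif5aa and elavl3 relation had r = 0.013 on log2(FPKM + 1). Without tumors 1, 2 and 8, a choice made after seeing the data, r was 0.83 for kif11 and mki67, -0.27 for kif11 and kif5aa and 0.51 for kif1aa and snap25a. The causes were not tested. Whether pool number or letter marks the separate control RNAs is uncertain, so the control spread is poorly known, and kinesins under 1 CPM in brain are limited by depth.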

Other observations

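Dynein, the motor that carries cargo towards microtubule minus ends, and its activator dynactin were followed in a list that also holds partner genes. The partners are the pafah1b1, nde1, ndel1, bicd and hook genes. The list had genes called in both directions, in shares near those of all genes (22.8% higher, 24.9% lower). Of 28 genes tested, 8 were called higher and 9 lower, their median change was 0.22 on the log2 scale, and they summed to 3116 to 3757 CPM in tumors (median 3388) and 3250 and 3240 CPM in the pools. The heavy chain dync1h1 had 731, 908 and 1319 CPM as lowest, median and highest tumor values, against 722 and 724 CPM in the pools (log2 fold change 0.36, edgeR adjusted p = 0.104).

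Other cell types in the tissue were followed by their markers, whose counts stand against 22.8% of all genes called higher and 24.9% called lower. Microglia and macrophage genes had summed levels of 2599 to 6214 CPM in tumors and 917 and 912 CPM in the pools (15 of 32 tested called higher). That list counts many rows of the gene name MFAP4 apart, most of them at low levels, which weighs on the share called. Oligodendrocyte lineage genes were called higher in 9 of 17 and lower in 4, radial glia genes were called lower in 6 of 12, and endothelial genes were called higher in 2 of 10 and lower in 1. The part of these cells in the kinesin levels was not tested.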
